A study of Mus musculus with 18 samples.

Results

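The scavenger receptors are a family of structurally unrelated membrane proteins described here through 9 mouse genes, chosen by name: Marco, Msr1, Olr1, Cd36, Scarb1, Scarb2, Cd68, Cd163 and Stab1. Every probe set annotated with 1 of these symbols and no other was taken, which gave 9 of 18193 named genes and 18 of the 45101 probe sets on the array, a probe set being a group of short oligonucleotides that together report 1 transcript region. The study exposed mice described only as KO to a cell wall extract, a preparation of microbial wall material whose source is not given, and hybridised total RNA of immune cells to 18 Affymetrix arrays. Each time point, 0 h as the control, 1 h and 4 h, had 6 arrays. The labels give no genotype, strain, age, dose, cell type, organ or animal for any sample, so what all groups share beyond the words of the design text is unknown, and whether arrays of a time came from separate animals is not stated. All p-values are thus set against the variation among these arrays, part or all of which could be technical. Each sample title carries an array code. These codes form 3 ranges (12 to 22, 32 to 37, 44 to 54) that each hold 2 arrays per time point, and what a range stands for is not given.

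Scavenger receptors bind polyanionic ligands such as oxidised or acetylated lipoproteins, microbial surface molecules, apoptotic cells and haemoglobin complexes, and carry them into the cell. Macrophages are their best known site of expression, where class A receptors take up bacteria and modified lipoprotein, class B receptors handle fatty acids and cholesterol, and further members clear haemoglobin or damaged matrix proteins. Some work beside the Toll-like receptors that detect bacterial lipoproteins, among them TLR2, which the title of the series names.

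Of the members with a promoter sequence at hand, the 3 with the largest differences at 4 h are shown to let their sequences be set beside their behaviour: Marco and Olr1, which rose, and Scarb2, which fell. The windows are the 250 bases before the annotated start, from RefSeq on the build GRCm38.p6, where 7 of the 9 genes matched an entry (all but Msr1 and Scarb1). Each is written 5′ to 3′ on the gene's own strand, the minus strand for all 3, in lower case with motif matches in capitals: Marco at chr1:120505025-120505274, Olr1 at chr6:129507166-129507415 and Scarb2 at chr5:92505658-92505907.
Marco: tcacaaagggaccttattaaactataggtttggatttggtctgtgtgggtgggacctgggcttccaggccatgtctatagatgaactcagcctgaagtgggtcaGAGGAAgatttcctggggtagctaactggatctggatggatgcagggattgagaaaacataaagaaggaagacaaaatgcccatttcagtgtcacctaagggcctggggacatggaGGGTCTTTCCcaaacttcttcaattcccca
Olr1: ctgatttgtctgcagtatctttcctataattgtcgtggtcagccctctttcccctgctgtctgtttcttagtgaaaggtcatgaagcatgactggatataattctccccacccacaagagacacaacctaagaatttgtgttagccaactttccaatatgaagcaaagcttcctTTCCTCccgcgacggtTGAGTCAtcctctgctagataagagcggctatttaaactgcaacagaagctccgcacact
Scarb2: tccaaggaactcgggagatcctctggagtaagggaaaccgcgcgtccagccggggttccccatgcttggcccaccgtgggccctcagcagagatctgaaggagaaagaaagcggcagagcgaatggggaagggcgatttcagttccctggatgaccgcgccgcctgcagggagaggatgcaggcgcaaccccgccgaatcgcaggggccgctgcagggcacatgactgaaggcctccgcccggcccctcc

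5 short motifs were searched on both strands: an AP-1 site (TGANTCA), an NF-kB site (GGG and TTTCC with 2 bases between them), the core of a PU.1 site (GAGGAA), a C/EBP site (TTGCNNAA) and the CLEAR element of lysosomal genes (TCACGTGA), where N is any base. The Marco window held GGGTCTTTCC, beginning 30 bases before the start, and GAGGAA, beginning 146 bases before it. The NF-kB letters occurred in 1.41% of 32851 promoter windows of the same length and the PU.1 core in 23.3%. The Olr1 window held TGAGTCA, 60 bases before the start, a motif found in 6.75% of windows, and the PU.1 core on the opposite strand, 76 bases before it. The Scarb2 window held none of the 5, including the CLEAR letters, which occurred in 0.785% of windows. Of the other 4 members with a window, Cd68 had 2 AP-1 matches, 1 PU.1 core and 1 C/EBP match (a motif in 9.56% of windows), Stab1 had a PU.1 core, and Cd36 and Cd163 had none. These are matches of letters, and binding was not measured.

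The label of immune cells was checked against marker genes. Of 14 macrophage markers 13 were measured above the filter, among them Csf1r, the receptor for the macrophage growth factor, with signals of 27010 to 51090 over the 18 arrays, and Adgre1, the F4/80 antigen, with 16120 to 32070. Signals are the deposited intensities, on a linear scale with every array scaled to the same trimmed mean. The mean log2 level of the 13 macrophage markers at 0 h was 13.80 ± 0.14 (SD, n = 6), with 13.79 ± 0.12 after 1 h and 13.41 ± 0.18 after 4 h. At 4 h against 0 h 10 of the 13 did not pass an adjusted p of 0.05 by limma. Of the rest 1 was higher (Cd14) and 2 were lower (Mertk and Ctss), where 35.4% of all genes passed. The median difference was -0.28 over the list and -0.19 over all genes. Some marker lists of other cells differed by code range: the summed signal of 6 stromal markers was 876.5 to 1450 in codes 12 to 22, 2443 to 4558 in codes 32 to 37 and 9668 to 14020 in codes 44 to 54, and that of 7 neutrophil markers 3764 to 6480, 1724 to 2951 and 898.9 to 1441. In others the summed signal shifted with time, with overlap between 0 h and 4 h. That of 4 of 10 dendritic cell markers above the filter was 140.6 to 500.3 at 0 h, 188.1 to 538.3 at 1 h and 472.8 to 865.2 at 4 h. That of 3 of 8 B cell markers was 323.4 to 568.3, 224.6 to 611.2 and 152.7 to 401.3. At an adjusted p under 0.05 by limma, 1 of the 4 was higher at 4 h than at 0 h (11.5% of all genes were) and 1 of the 3 lower (23.9%). The part of these lists in the differences at 4 h was not tested. In such bulk samples fewer cells of a type and less RNA per cell cannot be told apart.

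All differences below are of mean log2(signal + 16), so a fold change understates the change of a dim gene. A gene was represented by its brightest probe set, and "rose" or "fell" means an adjusted p under 0.05 in limma's moderated test, adjusted by Benjamini-Hochberg over the 25804 probe sets that lay above the median of their own array on at least 4 arrays. All 9 genes and all 18 probe sets passed that filter. 6 genes passed on all 18 arrays, while Olr1 passed on 13, Marco on 10 and Cd163 on 8. Olr1 lay above the median on all 6 arrays at 1 h and all 6 at 4 h but on 1 at 0 h, Marco on 6 at 4 h and on 2 at each earlier time, and Cd163 on 5 at 0 h, 2 at 1 h and 1 at 4 h, so these 3 entered the test partly through the times at which they were high.

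Between 0 h and 4 h, 3 scavenger receptor genes rose (Marco, Msr1 and Olr1) and 3 fell (Scarb2, Cd163 and Scarb1), while Cd36, Cd68 and Stab1 did not pass the test. The 6 calls among 9 genes stand beside a background of 35.4% of all 11733 genes called, 11.5% upward and 23.9% downward. The balance of directions depended on the scaling: 30% of the called probe sets rose here, 61% with each array centred on its median and 45.1% with quantile normalization. The median difference was -0.26 over the 9 genes and -0.19 over all genes. At 1 h 1 member, Olr1, had risen, where 0.648% of all genes were called. Between 1 h and 4 h 5 members changed, with 27.9% of all genes called. With the code range as a block 7 members were called in each of these 4 h comparisons, Stab1 being added in both and Scarb1 between 1 h and 4 h, beside 46.3% and 38.8% of all genes. In codes 32 to 37 alone, with 2 arrays a time, Olr1 was the single member called at 4 h against 0 h. That fit called 1184 of 25804 probe sets, where the fit of all arrays called 8532 (33.1%).

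**Figure D1:**
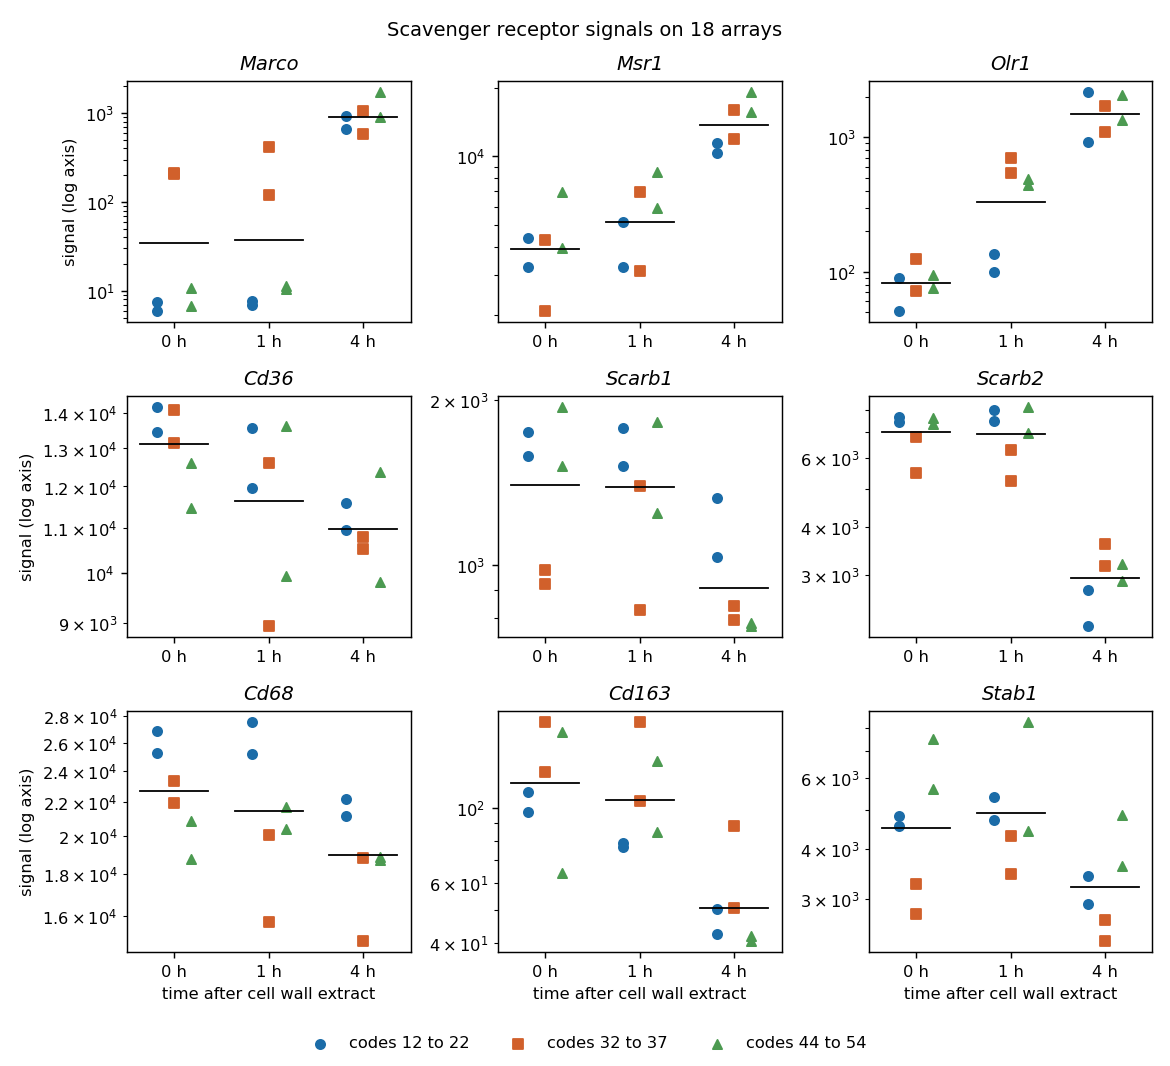
Signals of the 9 scavenger receptor genes on the 18 arrays, one panel per gene, with the signal on a log axis that differs between panels and time after the cell wall extract on the horizontal axis. Each point is 1 array, its shape and colour give the range of array codes, and the line is the mean of log2(signal + 16) converted back to signal. Marco, Msr1, Olr1 and Scarb2 at 4 h lie apart from their 0 h arrays, and the Marco arrays of codes 32 to 37 stand above the other arrays at 0 h and 1 h.

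Marco, the macrophage receptor with collagenous structure, binds bacteria and particles. Its signal at 0 h had a lowest value of 5.87, a median of 9.08 and a highest of 210.6. At 1 h the 3 values were 6.87, 10.8 and 410.1, and at 4 h 588.1, 903.5 and 1723. Every 4 h array was above every array of 0 h and 1 h. The difference from 0 h was 4.21 ± 0.76 (SE, 6 arrays against 6; adjusted p = 0.000399). Its size rests on the offset, since 4 of the 6 arrays at 0 h lay below their array's median: it was 5.20 with an offset of 1 and 3.13 with an offset of 64. With each signal below the median of its array set to that median, Marco was at least 6.43-fold higher at 4 h (2.68 on the log2 scale; adjusted p = 5.7e-06). An exact two-sided permutation test over the arrays gave p = 0.00216, the smallest that 6 against 6 allows, without adjustment for the 27 such tests of 9 genes and 3 comparisons. At 1 h the difference was 0.08 (95% confidence interval -1.52 to 1.69). A second, dimmer probe set rose by 2.58 ± 0.56 at 4 h (adjusted p = 0.00168).

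The low and high Marco arrays before 4 h were divided by code range. In codes 32 to 37 the 0 h signals were 207.5 and 210.6 and the 1 h signals 118.7 and 410.1. In the other ranges the 8 arrays of these times gave 5.87 to 11.3, each below the median of its own array. At 4 h no such division was seen: the means were 790.2 in codes 12 to 22, 816.3 in codes 32 to 37 and 1308 in codes 44 to 54. Among the 0 h arrays alone, Marco was higher in codes 32 to 37 than in codes 12 to 22 by 3.31 ± 0.16 (2 arrays against 2; adjusted p = 0.0216) and lower in codes 44 to 54 than in codes 32 to 37 by a difference of -3.19 (adjusted p = 0.032). With the array median as floor these became 1.01 (adjusted p = 0.02) and -0.91 (adjusted p = 0.0193). Marco was the single member called in either of these 0 h comparisons, where 1.99% and 2.41% of all genes were called.

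The rise of Marco at 4 h was accordingly 5.14 within codes 12 to 22, 1.83 within codes 32 to 37 and 5.67 within codes 44 to 54. The first and last of these were taken against arrays below their median and are set by the offset, and with the array median as floor they were at least 2.83 and 3.39. An F test of whether the 4 h response differed between ranges passed for Marco (adjusted p = 0.0286) and for its second probe set (adjusted p = 0.0327), and for 0.837% of all probe sets (216 of 25804). No other member passed, the smallest adjusted p among them being 0.443 for Scarb2. The call for Marco was lost with that floor (adjusted p = 0.478) and with an offset of 64 (adjusted p = 0.0676), and in 11 of the 18 fits that left out 1 array, where its adjusted p ran from 0.00943 to 0.125, highest without the 0 h array coded 32. Taken alone, codes 32 to 37 gave 1.83 with an adjusted p of 0.137 on 2 arrays against 2. Over all times the mean log2 level of 4 dendritic cell markers was 6.11 in codes 12 to 22, 6.91 in codes 32 to 37 and 6.75 in codes 44 to 54, and of the macrophage markers 13.53, 13.67 and 13.81; the part of these in the Marco signal was not tested.

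**Figure D2:**
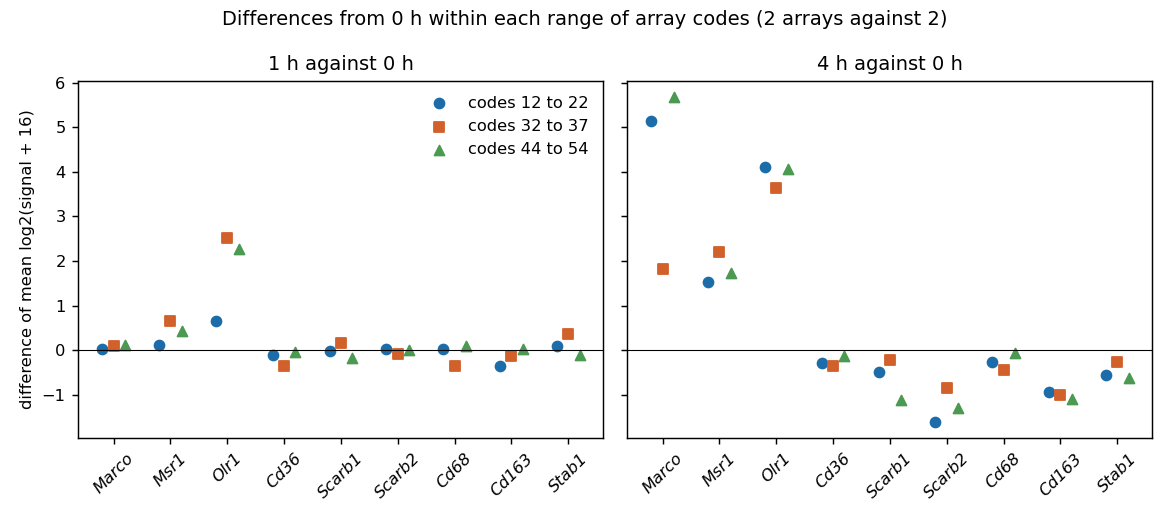
Difference from 0 h within each range of array codes for the 9 genes at 1 h (left) and 4 h (right), as differences of mean log2(signal + 16) with 2 arrays against 2 behind each point and no error bar. Marco at 4 h stands at 1.83 in codes 32 to 37 against 5.14 and 5.67 in the other ranges, where the array median as floor gave at least 2.83 and 3.39, and Olr1 at 1 h at 0.66 in codes 12 to 22 against 2.51 and 2.27.

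Msr1 encodes the class A receptor SR-A (CD204), which takes up acetylated lipoprotein and binds bacterial lipid products. Its lowest, median and highest signals were 2071, 4101 and 6980 at 0 h, 3109, 5543 and 8554 at 1 h, and 10380, 13790 and 19220 at 4 h. The 4 h arrays were all above the others, while the 0 h and 1 h arrays overlapped. Msr1 rose by 1.82 ± 0.28 between 0 h and 4 h (3.53-fold; adjusted p = 9.46e-05), with 1.53, 2.21 and 1.72 within the 3 code ranges in order, and by 1.42 ± 0.28 between 1 h and 4 h (adjusted p = 0.0013). At 1 h the difference was 0.40 (interval -0.19 to 0.99).

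The 4 Msr1 probe sets did not move alike. Beside the brightest, 1 rose by 1.11 ± 0.24 (adjusted p = 0.00191), 1 by 0.82 ± 0.31 (adjusted p = 0.0492), and the dimmest differed by 0.17 ± 0.43 (adjusted p = 0.797). The signals of that last probe set were 542.9 to 1937 at 0 h and 650.1 to 2272 at 4 h, overlapping over most of their range. Which transcript each probe set reads is not given in the sources used here.

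Olr1 encodes LOX-1, a lectin-like receptor for oxidised lipoprotein. Its lowest, median and highest signals were 50.5, 82.4 and 124.7 at 0 h, 99.7, 467.4 and 702.5 at 1 h, and 924.7, 1532 and 2176 at 4 h. Olr1 was called at both steps: 5 of the 6 arrays at 1 h were above every 0 h array, and every 4 h array was above every 1 h array. At 1 h it rose by 1.81 ± 0.39 (3.51-fold; adjusted p = 0.0334; exact permutation p = 0.00433), and with the array median as floor by 1.54, which did not pass (adjusted p = 0.0544). The rise reached 3.94 ± 0.39 at 4 h (15.3-fold, and at least 12.7-fold with that floor; adjusted p = 1.03e-06), with 2.12 ± 0.39 of it between 1 h and 4 h (adjusted p = 0.00067). The 1 h difference was thus 46% of the 4 h difference on the log2 scale.

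The 1 h rise of Olr1 was uneven. The arrays of codes 12 to 22 gave 99.7 and 135.1 and the other 4 arrays 444 to 702.5, so the difference was 0.66 within codes 12 to 22, 2.51 within codes 32 to 37 and 2.27 within codes 44 to 54. The test of that difference between ranges gave an unadjusted p of 0.0152 and an adjusted p of 1 by limma; over all probe sets it called 0%, with 919 at an unadjusted p under 0.05. At 4 h the values within ranges were 4.10, 3.64 and 4.07. The 1 h call was lost in 9 of the 18 fits that left out 1 array, where the adjusted p ran from 0.00124 to 0.104, highest without the 1 h array coded 51, and it had an adjusted p of 0.0104 with the code range as a block, where 1.02% of all genes were called.

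**Figure D3:**
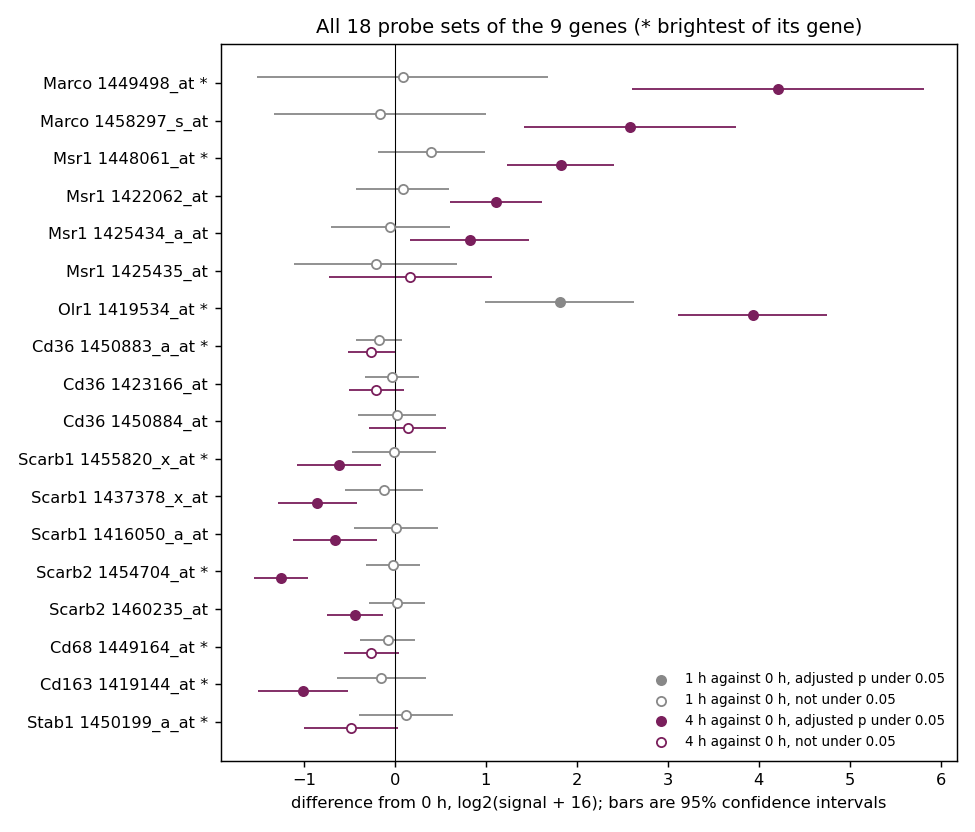
Difference from 0 h at 1 h (grey) and 4 h (purple) for all 18 probe sets of the 9 genes, on the log2(signal + 16) scale, with 95% confidence intervals from limma's fit of 6 arrays per time. Filled points have an adjusted p under 0.05. At 4 h 12 of the 18 are filled, 6 on either side of 0, where 33.1% of all probe sets were called, and at 1 h Olr1 alone.

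Scarb2 encodes LIMP-2, a class B protein of the lysosomal membrane that carries the enzyme glucocerebrosidase to lysosomes. Its lowest, median and highest signals were 5517, 7413 and 7647 at 0 h, 5245, 7234 and 8142 at 1 h, and 2218, 3041 and 3605 at 4 h. All 4 h arrays were below all earlier arrays. Scarb2 fell by 1.25 ± 0.14 on the log2 scale (2.38-fold; adjusted p = 4.01e-06), with -1.61, -0.85 and -1.29 within the 3 code ranges. Its second probe set fell by 0.44 ± 0.15 (adjusted p = 0.0281), with 1718 to 3140 at 4 h against 2738 to 3357 at 0 h. At 1 h the difference was -0.02 (interval -0.31 to 0.28).

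Scarb1 encodes SR-BI, the receptor through which cells take cholesteryl esters from high-density lipoprotein. Its lowest, median and highest signals were 922.4, 1548 and 1944 at 0 h, 825.5, 1452 and 1826 at 1 h, and 772.1, 815.8 and 1325 at 4 h. At 4 h 4 of the 6 arrays were below every 0 h array. The other 2, at 1035 and 1325, were those of codes 12 to 22, below the 0 h arrays of their own range at 1579 and 1751 but above those of codes 32 to 37 at 922.4 and 979.7. The difference was -0.61 ± 0.22 (adjusted p = 0.0402), and -0.50, -0.22 and -1.13 within the ranges. With each array centred on its median it was -0.36 (adjusted p = 0.285) and with quantile normalization -0.56 (adjusted p = 0.0703), and the call was lost in 8 of 18 fits that left out 1 array, where the adjusted p ran from 0.0181 to 0.0937, highest without the 0 h array coded 44. The other Scarb1 probe sets fell by 0.85 ± 0.21 (adjusted p = 0.0039) and 0.66 ± 0.22 (adjusted p = 0.0292).

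Cd36, the class B receptor for fatty acids and oxidised lipoprotein and a partner of TLR2, gave lowest, median and highest signals of 11470, 13310 and 14190 at 0 h, 8939, 12290 and 13630 at 1 h, and 9817, 10880 and 12360 at 4 h. The groups overlapped, with 4 of 6 arrays at 4 h below every 0 h array. The difference at 4 h was -0.26 ± 0.12 (interval -0.51 to -0.004; adjusted p = 0.111), and the exact permutation test on Cd36 alone gave p = 0.00649, unadjusted. It was -0.004 with median centring and -0.39 with quantile normalization, where it passed (adjusted p = 0.0181). The other Cd36 probe sets gave -0.20 (adjusted p = 0.291) and 0.14 (adjusted p = 0.632).

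Cd68, the macrophage glycoprotein of late endosomes and lysosomes, gave lowest, median and highest signals of 18760, 22660 and 26850 at 0 h, 15730, 21060 and 27570 at 1 h, and 14910, 18830 and 22220 at 4 h. Its groups overlapped, and 2 of 6 arrays at 4 h were below all at 0 h. The 4 h difference was -0.26 (interval -0.56 to 0.04; adjusted p = 0.18), and -0.004 with median centring, so a fall of the size seen in Scarb2 lay outside the interval.

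Cd163 encodes the receptor for complexes of haemoglobin and haptoglobin. Its signals were low, with a lowest, median and highest of 64.1, 119.4 and 179.3 at 0 h, 76.4, 94.6 and 179.3 at 1 h, and 40.4, 46.3 and 88.5 at 4 h. At 4 h 5 of 6 arrays were below every 0 h array, and the remaining array, coded 34, overlapped with them. Cd163 fell by 1.01 ± 0.23 on the log2 scale (2.02-fold; adjusted p = 0.00291), or by 0.57 with the array median as floor (adjusted p = 0.00876), with -0.95 within codes 12 to 22 and -1.09 within codes 44 to 54. It also fell between 1 h and 4 h, by 0.86 ± 0.23 (adjusted p = 0.0114), a call that was lost with median centring (-0.63; adjusted p = 0.0938) and with quantile normalization (-0.64; adjusted p = 0.0754).

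Stab1 encodes stabilin-1, a receptor of macrophages and sinusoidal endothelium that clears modified lipoprotein and matrix proteins. Its lowest, median and highest signals were 2767, 4699 and 7517 at 0 h, 3475, 4581 and 8285 at 1 h, and 2362, 3179 and 4858 at 4 h, with overlap between all times. The 4 h difference was -0.49 ± 0.25 (0.714-fold, 95% confidence interval 0.499 to 1.02; adjusted p = 0.14) and did not pass the test. With the code range as a block it passed (adjusted p = 0.0157, where 46.3% of all genes were called). Between 1 h and 4 h the difference was -0.61 ± 0.25, with an adjusted p of 0.0816 without and 0.00518 with the block, under which 38.8% of all genes were called. For Scarb1 the same comparison gave -0.60 ± 0.22, with 0.055 and 0.00916.

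Stab1 also differed between code ranges. Over all times, with time in the fit, it was higher in codes 44 to 54 than in codes 32 to 37 by 0.83 ± 0.15 (1.78-fold; 6 arrays against 6; adjusted p = 0.00117), and the difference within the times was 1.11 (0 h), 0.65 (1 h) and 0.74 (4 h). The 0 h arrays alone gave an adjusted p of 0.0587 on 2 arrays against 2. The mean log2 level of Stab1 was 12.05 in codes 12 to 22, 11.6 in codes 32 to 37 and 12.43 in codes 44 to 54. In the same order that of 6 endothelial markers was 6.646, 7.06 and 7.52, and that of 6 stromal markers 7.335, 8.77 and 10.26. Both marker lists and Stab1 were highest in codes 44 to 54. The lists were lowest in codes 12 to 22 and Stab1 in codes 32 to 37. The part of these markers in the Stab1 difference was not tested.

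All members were compared between ranges. With the arrays of all times pooled, the ranges overlapped in each of the 27 comparisons. For a gene that changes with time, such pooled overlap says little about the ranges. Within 0 h and within 1 h, Marco in codes 32 to 37 lay above every array of the other ranges, as given above. Between codes 32 to 37 and codes 12 to 22, 4 of 9 members were called, with 20.7% of all genes called. Marco was higher by 2.23 ± 0.54 (adjusted p = 0.0102), a call lost with the array median as floor (0.73; adjusted p = 0.0906), and Scarb1 was lower, at -0.64 ± 0.16 (adjusted p = 0.0132). Cd68 gave -0.38 ± 0.10 (adjusted p = 0.018) and Stab1 -0.45 ± 0.15 (adjusted p = 0.0477). Dimmer probe sets passed there for Marco (1.68, adjusted p = 0.0108) and Scarb1 (-0.56, adjusted p = 0.0191). So did dimmer probe sets of Msr1 (0.69, adjusted p = 0.0391) and Cd36 (-0.48, adjusted p = 0.0407), whose brightest did not pass. Between codes 44 to 54 and codes 12 to 22, 1 member was called, Cd68 at -0.31 ± 0.10 (adjusted p = 0.0455), with 22.3% of all genes called. Dimmer probe sets of Msr1 passed at 0.67 (adjusted p = 0.0194) and 0.93 (adjusted p = 0.00673). A dimmer probe set of Cd36 passed at -0.51 (adjusted p = 0.0271). The brightest probe sets of both genes did not pass. Between codes 44 to 54 and codes 32 to 37, 2 were called, with 20.8% of all genes called: Stab1, given above, and Marco at -1.90 ± 0.54 (adjusted p = 0.0238), or -0.44 with that floor (adjusted p = 0.33). The second Marco probe set did not pass (-0.83, adjusted p = 0.19). Dimmer probe sets of Scarb2 (-0.42, adjusted p = 0.00756) and Scarb1 (0.58, adjusted p = 0.0281) passed, whose brightest did not. In these last 2 comparisons the share of members called was below or near that of all genes. Of these, the Marco call was lost in 7 of 18 fits that left out 1 array (adjusted p up to 0.0597, without the 0 h array coded 32), the Stab1 call against codes 12 to 22 in 12 (up to 0.107, without the same array) and the Cd68 call at codes 44 to 54 in 14 (up to 0.111, without the 0 h array coded 47).

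**Figure D4:**
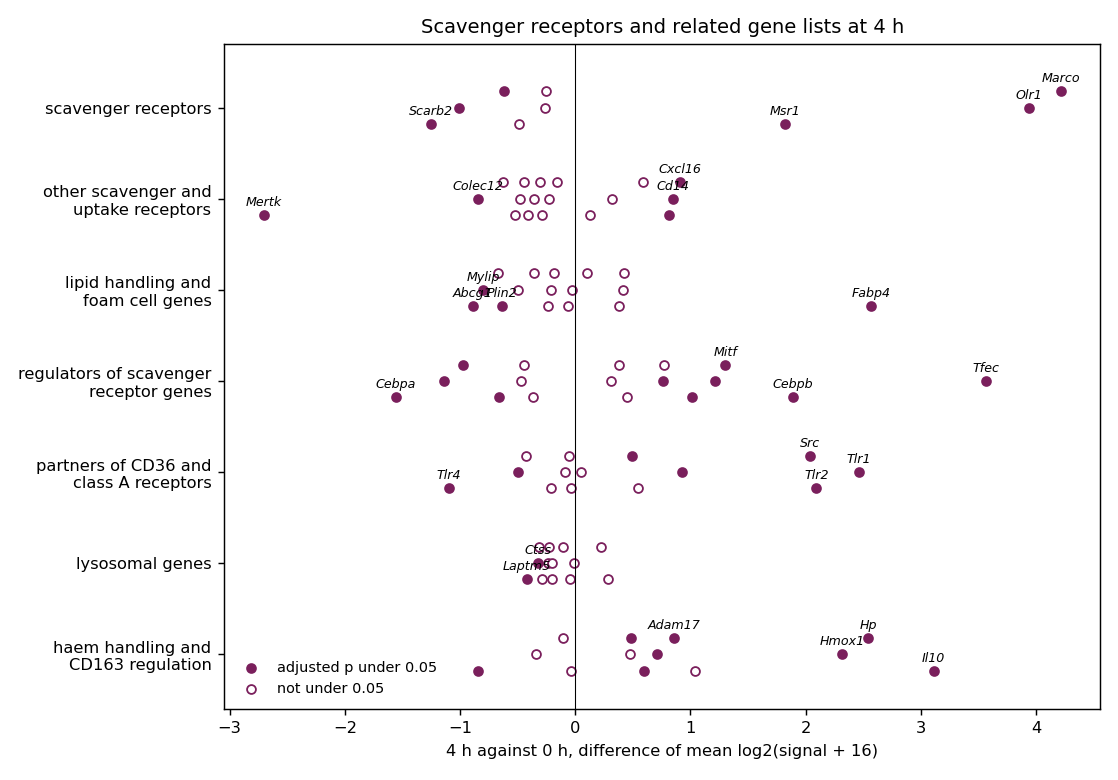
Difference between 4 h and 0 h, as mean log2(signal + 16), for the 9 scavenger receptors and 6 lists of related genes, 1 point per gene by its brightest probe set, with points shifted vertically within a list for legibility. Filled points have an adjusted p under 0.05 and labels mark up to 4 genes of a list with the largest called change. The scavenger receptors reach from -1.25 (Scarb2) to 4.21 (Marco), and the lysosomal genes lie within 0.42 below and 0.29 above 0.

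Genes that work beside the scavenger receptors were taken as 6 lists, with counts over their measured genes at 4 h against 0 h, to be read beside the 35.4% of all genes called (11.5% up, 23.9% down) and their median of -0.19. Of 18 other scavenger and uptake receptors 3 rose and 2 fell, with a list median of -0.30, a smaller share than among all genes. Mertk, which recognises apoptotic cells, fell by 2.70 ± 0.34 (1597 to 263 in mean signal; adjusted p = 1.24e-05), and Colec12, a class A collectin, by 0.84 ± 0.26 (adjusted p = 0.0193). Cxcl16, a membrane chemokine that also binds oxidised lipoprotein, rose by 0.91 ± 0.26 (adjusted p = 0.0133), and Cd14, a co-receptor for bacterial products, by 0.84 ± 0.26 (adjusted p = 0.019).

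Of 14 surface and signalling partners of CD36 and the class A receptors 5 rose and 2 fell, beside 11.5% and 23.9% of all genes, with a median of 0.005. Tlr1 rose by 2.46 ± 0.40 (adjusted p = 0.000158), Tlr2 by 2.09 ± 0.32 (mean signal 5795 to 23530; adjusted p = 7.98e-05) and the kinase gene Src by 2.04 ± 0.34 (adjusted p = 0.000205). Tlr4, the endotoxin receptor, fell by 1.10 ± 0.21 (adjusted p = 0.000536). Of 17 regulators of scavenger receptor genes 6 rose and 4 fell, beside the same shares, with a median of 0.38. Tfec, a macrophage transcription factor related to Mitf, rose by 3.57 ± 0.44 (mean signal 495.1 to 5823; adjusted p = 9.66e-06), Cebpb by 1.89 ± 0.26 (adjusted p = 3.04e-05) and Mitf by 1.30 ± 0.40 (adjusted p = 0.0172), whereas Cebpa fell by 1.56 ± 0.52 (adjusted p = 0.0268).

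Of 16 lipid handling and foam cell genes 1 rose and 3 fell, with a median of -0.20, close to that of all genes, and a share called below the 35.4% of all genes. Fabp4, the fatty acid binding protein of macrophages and fat cells, rose by 2.57 ± 0.48 (mean signal 527.2 to 4077; adjusted p = 0.000486). Abcg1, a cholesterol exporter, fell by 0.89 ± 0.31 (adjusted p = 0.0365), Mylip, which targets the LDL receptor for degradation, by 0.80 ± 0.19 (adjusted p = 0.00404), and Plin2, a lipid droplet coat protein, by 0.63 ± 0.18 (adjusted p = 0.0121). Of 13 lysosomal genes none rose and 2 fell, again a share below 35.4%, with a median of -0.20: Laptm5 by 0.42 ± 0.11 (adjusted p = 0.00837) and Ctss by 0.33 ± 0.11 (adjusted p = 0.0365).

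The last list held genes of haem and iron handling together with Il10, Il10ra and Adam17, which are tied to CD163 and handle no haem. Of its 13 genes 7 rose, among them Il10 and Adam17, and 1 fell (Hmox2), beside 11.5% and 23.9% of all genes, with a median of 0.60. The cytokine gene Il10 rose by 3.11 ± 0.57 (mean signal 196.8 to 1722; adjusted p = 0.000413), and was already higher by 2.84 ± 0.57 at 1 h (adjusted p = 0.0196). Haptoglobin (Hp) rose by 2.55 ± 0.39 (adjusted p = 9.26e-05), and Hmox1, which breaks down haem, by 2.32 ± 0.47 (mean signal 2844 to 18030; adjusted p = 0.000961). Adam17, a protease that sheds CD163 from the cell surface, rose by 0.86 ± 0.16 (adjusted p = 0.000423).

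The genes most like each member in pattern were taken by Pearson's r of the log2 values over the same 18 arrays, given as a description, since the arrays share times and ranges. Olr1 was closest to Ets2 (r = 0.981), Stx11 (0.974) and Tnip1 (0.973), which rose by 4.31, 3.35 and 2.69 at 4 h. Scarb2 was closest to Cnnm3 (0.979), Mxd4 (0.977) and Jmy (0.973), which fell by 1.46, 2.79 and 1.73. Marco was closest to Gpd2 (0.954), Agpat4 (0.953) and Slc15a3 (0.950), which rose by 2.05, 1.97 and 2.40 at 4 h.

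For Msr1 the closest were Pid1 (0.938), Larp1 (0.928) and Gnl3 (0.926), and for Cd163 Rchy1 (0.931), Trappc11 (0.923) and Hfe (0.922). Stab1 was closest to Igfbp4 (0.967), Mbtps1 (0.948) and Tbxas1 (0.934). The closest genes to Cd68 were Ost4 (0.939), ND5 (0.911) and Dad1 (0.910), those to Scarb1 Tbc1d5 (0.894), Fam174a (0.891) and Uhmk1 (0.885), and those to Cd36 Ostc (0.888), Cops6 (0.856) and Snrpd3 (0.856). Among the members themselves the highest r was 0.784 between Msr1 and Olr1, and the lowest -0.888 between Marco and Scarb2.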

How the data were processed

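Total RNA of 18 samples was hybridised to Affymetrix arrays. The authors deposited 1 linear signal intensity per probe set and array. MAS5 and GCOS, without versions, are named in the submitters' processing notes; their settings are not given in the sources. Array number limits the precision, and detection calls were not used. Samples were grouped by the time in their labels. Of 45101 probe sets, 64 are controls and 34945 carry a single symbol in the platform annotation supplied for this work, of which 34741 matched RefSeq's gene table of GRCm38.p6.

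From the deposited intensities log2(signal + 16) was computed without renormalizing. Probe sets were kept if above their array's median on at least 4 of 18 arrays, which left 25804 (57.3%). R 4.3.3 and limma 3.58.1 (lmFit, eBayes) fitted 1 mean for each time, additive means of time and code range, and a mean per time and range for the F tests, with Benjamini-Hochberg adjustment at 0.05. Scripts were tested on simulated data. Figures used Python 3.11.15 with matplotlib 3.10.9. Alternatives covered the offset, filter, scaling, code range as a block, single arrays and ranges left out, array weights, probe set choice and, added after the data were seen, the array median as floor.

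The code ranges grouped the arrays: for 18 of 18 arrays the array of another time with the most similar residuals shared its range (median correlation 0.343 within and -0.145 between ranges). No pair of arrays held identical values. The 9 genes, the lists and the tests were chosen with earlier results of these data known. Named genes are all members, up to 4 called genes with the largest 4 h change per list, and the 3 most correlated genes per member. The other genes named in the series title are not analysed here.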

Additional observations from a re-analysis of the deposited data

Results flagged for a closer look

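In Scarb2 the 0 h array coded 32 had a signal of 5517, apart from the other 5 arrays of that time, of which the nearest was at 6808. In Cd163 the 4 h array coded 34 had a signal of 88.45, apart from the other 5, of which the nearest was at 50.71. Both arrays are of codes 32 to 37. These are 2 of the 27 groups of 6 arrays that were examined, and chance sets 1 array apart in about 1 of 20 such groups.

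Marco differed between code ranges in its response at 4 h: the difference from 0 h was lower by 3.31 in codes 32 to 37 than in codes 12 to 22 (a contrast of -3.31 on the log2 scale), and in codes 44 to 54 the contrast with codes 12 to 22 was 0.54 (F test by limma, adjusted p = 0.0286). The within-range rises behind this were 5.14, 1.83 and 5.67, on 2 arrays against 2 each. The 0 h arrays of the first and last range lay below their array's median, and with signals below it set to that median the F test gave an adjusted p of 0.478.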

How the results depend on the processing

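Of 1662 differences of single members under an alternative, 1477 kept direction and side of the threshold, 98 lost and 28 gained a call, 59 changed sign with no call in either setting, and none with a call changed sign. Of 446 F tests of a response between ranges, which have no single direction, 432 kept their side of the threshold and 14 lost a call. All 14 were of Marco at 4 h, the single F test called, which kept its call in 10 of 24 settings. At 4 h against 0 h Olr1 kept its call in 35 of 35 settings, and Marco (34 settings), Msr1 and Scarb2 (35 each) lost theirs only in codes 32 to 37 alone. Fits of 1 range alone rest on 2 arrays a time. The fits of the other ranges alone have as few arrays and kept these calls of Marco, Msr1 and Scarb2. The cause of the losses was not tested.

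Members called, by comparison. Counts are of the 9 genes, but those over every probe set are of their 18 probe sets. At 1 h against 0 h the count of 1 became 0 with no filter, with the 2 times alone, in codes 12 to 22 or 32 to 37 alone, without codes 32 to 37 or 44 to 54, and with signals below the array median set to it, an alternative added after the data were seen. At 4 h against 0 h the count of 6 became 1 in codes 32 to 37 alone (Olr1) and 12 over every probe set; at 4 h against 1 h 5 became 0 in codes 32 to 37 alone, 3 in codes 44 to 54 alone and 11 over every probe set. With the code range as a block, fixed or random, both counts were 7. Codes 32 to 37 against 12 to 22 went from 4 to 2 (no filter, or median centring), 1 (0 h alone) and 8 (every probe set), codes 44 to 54 against 12 to 22 from 1 to 0 (no filter, or 0 h alone) and 4, and codes 44 to 54 against 32 to 37 from 2 to 1 (filter of at least 12 arrays, 0 h alone, or the array median as floor) and 4. For the 4 h response between ranges 1 became 0 with an offset of 64, no filter, the array median as floor or a filter of at least 12 arrays, which removed Marco.

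Probe sets called. At 1 h 194 became 339 with the range as a fixed block, 340 as a random block, 104 with the 2 times alone, 0 and 55 in codes 12 to 22 and 32 to 37 alone, and 338, 5 and 1 without each range in turn. At 4 h against 0 h 8532 became 4001, 1184 and 3783 in each range alone and 5639 and 5017 without codes 12 to 22 and 44 to 54; at 4 h against 1 h 6286 became 3399, 490, 1833, 3444 and 3615 likewise. At 0 h alone the range comparisons fell from 4586, 4941 and 4417 to 489, 683 and 549. For the 4 h response 216 became 326 (offset 64), 57 (no filter) and 440 (array median as floor), and for the 1 h response 0 became 1 (offset 64, at least 12 arrays, or the same floor).

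Leaving out each array in turn gave, for members and for probe sets, 0 to 1 and 108 to 418 at 1 h, 5 to 6 and 7485 to 8725 at 4 h against 0 h, 5 to 6 and 5447 to 6381 at 4 h against 1 h, 3 to 5 and 3761 to 4559, 0 to 2 and 3950 to 5325, and 1 to 2 and 3521 to 4518 for the range comparisons in the same order, 0 to 1 and 40 to 209 for the 4 h response between ranges, and 0 to 0 and 0 to 25 for the 1 h response.

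Scaling moved the balance of calls. At 4 h against 0 h 30% of called probe sets rose, but 61% with median centring and 45.1% with quantile normalization (31.6%, 64.5% and 47.1% against 1 h; 54.8%, 37% and 46.3%, and 51.8%, 32.3% and 47%, for codes 44 to 54 against the other ranges), as the median of all kept probe sets moved from -0.22 to 0.04 and -0.07. No paired analysis was possible because the labels give no replicate numbers; the fits with the code range as a block, which holds 2 arrays per time, matched arrays by range only.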
